A study of Mus musculus with 36 samples.

Results

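The 7 genes described here, Gabra2, Gabra3, Gabra4, Gabra5, Gabrb1, Gabrb2 and Gabrd, encode subunits of the GABA-A receptor and were taken by symbol from the 24421 gene symbols measured in mouse hippocampus. All 7 are in every table and all 7 passed the filter on low values. The other 12 subunit genes of the receptor in the tables serve as the comparison. Polyadenylated RNA of whole hippocampus was sequenced in 36 libraries, in 6 groups with 3 female and 3 male libraries each. Nanoligomer-treated old mice (18 months), old mice without treatment (18 months) and young mice (8 months) were C57BL/6 animals. Nanoligomer-treated APP/PS1 mice, APP/PS1 mice and their littermates that do not carry the transgenes, given as controls, were all 4 months old. APP/PS1 mice carry transgenes for mutant amyloid precursor protein and presenilin 1, which drive early amyloid deposition. The title of the series names NF-kB and NLRP3, a transcription factor family and an inflammasome sensor, as what was lowered. Which promoters drive the transgenes, the dose and the course of treatment are not stated in these sources, and no group here is labelled as given a control nanoligomer. The labels do not say whether each library is 1 mouse, so p-values measure the spread between libraries.

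GABA-A receptors are chloride channels built from subunits around a central pore, and they carry most fast inhibition in the brain. The alpha subunits set where a receptor sits and how it responds to GABA, benzodiazepines and neurosteroids, the beta subunits form the GABA site together with an alpha subunit, and a gamma or delta subunit completes most receptors. In the hippocampus, alpha5 is abundant in pyramidal neurons of the CA fields and carries tonic inhibition there, while alpha4 and delta pair in receptors outside synapses of dentate granule cells. Alpha2 is known from synapses on the axon initial segment of pyramidal cells, and alpha3 is better known from deep cortical layers, monoaminergic nuclei and the thalamic reticular nucleus than from the hippocampus.

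Most of the genes lie in clusters in the mouse genome, given here on GRCm38 with 1-based coordinates of the GENCODE annotation. Gabra2 (chr5:70957597-71095849, minus strand), Gabra4 (chr5:71569749-71658308, minus strand) and Gabrb1 (chr5:71658113-72149037, plus strand) share a cluster on chromosome 5. Gabra5 (chr7:57407672-57510059, minus strand) lies on chromosome 7, Gabrb2 (chr11:42419757-42629028, plus strand) on chromosome 11 near Gabra6, and Gabra3 (chrX:72432681-72656848, minus strand) between Gabre and Gabrq on chromosome X. Gabrd (chr4:155384980-155398112, minus strand) has no other subunit gene next to it. All 7 are annotated as protein-coding and counts are over whole genes, so splice forms are not separated. Gabra4 and Gabrb1 face away from each other and overlap by 196 bases including exons, and Gabra5 shares exon sequence with the antisense gene Gm9962. The sources used here do not say whether reads were counted by strand, so reads from these overlaps cannot be told apart.

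Promoter windows of 300 bases, from 250 bases before to 50 bases after a RefSeq start site on GRCm38.p6, are shown for Gabra3, the 1 gene that passed in a comparison, for Gabra5, which ran against it, and for the divergent pair Gabra4 and Gabrb1. They are read 5′ to 3′ on the strand of the gene. They lie at chrX:72656870-72657169 (Gabra3, minus strand), chr7:57510010-57510309 (Gabra5, minus strand), chr5:71658259-71658558 (Gabra4, minus strand) and chr5:71657671-71657970 (Gabrb1, plus strand). Capitals mark every match, on either strand, to the letters of 4 motifs. The GC box was searched as GGGCGG and the CCAAT box by the letters of its name. For the TATA box the search used TATAAA, the core of that element as commonly drawn. For the cAMP response element, where CREB proteins bind, the search used TGACGTCA, and no matches of these motifs overlapped in these windows.
Gabra3: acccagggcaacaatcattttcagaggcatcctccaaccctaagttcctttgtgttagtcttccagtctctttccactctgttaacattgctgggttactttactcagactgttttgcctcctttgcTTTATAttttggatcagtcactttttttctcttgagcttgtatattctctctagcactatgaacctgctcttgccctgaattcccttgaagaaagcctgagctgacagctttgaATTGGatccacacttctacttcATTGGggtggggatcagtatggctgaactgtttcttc
Gabra5: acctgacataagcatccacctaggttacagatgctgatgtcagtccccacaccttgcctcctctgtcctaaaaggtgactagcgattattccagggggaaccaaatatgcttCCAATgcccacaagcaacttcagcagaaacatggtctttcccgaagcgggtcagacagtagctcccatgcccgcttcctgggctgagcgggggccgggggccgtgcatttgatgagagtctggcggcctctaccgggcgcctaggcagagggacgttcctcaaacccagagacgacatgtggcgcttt
Gabra4: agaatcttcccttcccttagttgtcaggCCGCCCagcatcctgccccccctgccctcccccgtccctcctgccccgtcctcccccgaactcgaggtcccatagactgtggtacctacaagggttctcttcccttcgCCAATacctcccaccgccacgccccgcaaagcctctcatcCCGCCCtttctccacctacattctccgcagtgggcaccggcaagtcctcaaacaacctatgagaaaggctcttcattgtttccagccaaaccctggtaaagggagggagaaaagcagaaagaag
Gabrb1: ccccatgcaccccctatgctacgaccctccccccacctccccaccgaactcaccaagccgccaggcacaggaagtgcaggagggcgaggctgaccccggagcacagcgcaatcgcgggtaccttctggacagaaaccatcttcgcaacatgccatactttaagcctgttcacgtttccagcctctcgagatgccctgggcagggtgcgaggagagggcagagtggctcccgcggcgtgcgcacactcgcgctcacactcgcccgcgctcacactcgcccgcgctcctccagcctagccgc
The Gabra3 window held 0 CG dinucleotides at 43% G and C, against 13 in the Gabra5 window at 56.7%, 12 in the Gabra4 window and 25 in the Gabrb1 window. The median over the 32851 RefSeq windows of this length was 7 CG dinucleotides and 52.7% G and C, and 5.43% of them held none. The Gabra3 window held 1 match to the TATA box letters, on the opposite strand, and 2 to the CCAAT box, while the Gabra4 window held 2 GC boxes and 1 CCAAT box, the Gabra5 window 1 CCAAT box and the Gabrb1 window none of the 4. Among all windows, 35.7% held a GC box, 13.6% a TATA box, 37.4% a CCAAT box and 1.79% a cAMP response element. The other RefSeq window of Gabra3 (chrX:72656758-72657057, minus strand), which overlaps most of the printed one, was also free of CG dinucleotides. The Gabra2 window (chr5:71095800-71096099, minus strand) held 25 of them at 70% G and C. Of the 7 genes, 6 matched a window, with 10 windows in all, and Gabrd did not. Letters that match a motif describe the window and do not show that a factor binds there.

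Library depth was 27.6 to 46.3 M reads in 35 libraries. The remaining one, APP/PS1 nanoligomer female 3, held 0.913 M reads, with 0 reads for Gabra2, Gabra3, Gabra4 and Gabrd and 475, 126 and 68 for Gabra5, Gabrb1 and Gabrb2, and it was left out, so that group has 5 libraries. Several of the 35 stood apart by markers of brain regions next to the hippocampus. APP/PS1 female 1 and young male 1 had 5.10 and 6.31 CPM (reads per M mapped to genes) of Fezf2, against 22.7 to 72.3 in the other 33. Gad1, a gene of GABA synthesis, stood at 617 CPM in APP/PS1 female 1, and the thalamic marker Tcf7l2 at 196 CPM in young male 1. The striatal receptor gene Drd1 stood at 82.6 CPM in APP/PS1 female 1, 82.7 in old nanoligomer female 3, 45.2 in young male 2 and 40.5 in APP/PS1 nanoligomer male 2, against 3.90 to 17.4 in the rest. Hippocampal markers were present throughout, with 324 to 1189 CPM summed over 10 CA1 genes and 480 to 1006 over 13 dentate granule cell genes, and no marker gene of the 11 lists was at 0 in all libraries of a group. The most abundant markers by mean over the 35 libraries were Mpped1 and Wfs1 for CA1 (272 and 195 CPM), Dkk3 and Nnat for CA3 and CA2 (340 and 294 CPM), Fam163b and Calb1 for dentate granule cells (196 and 84.1 CPM) and Gad1 and Kcnc1 for interneurons (293 and 285 CPM). They were Mef2c and Tbr1 for neocortex (316 and 127 CPM), Pde10a and Ppp1r1b for striatum (140 and 135 CPM), Rora and Nwd2 for thalamus and habenula (58.9 and 51.8 CPM) and Ttr and Kl for choroid plexus (432 and 30.3 CPM). For glia they were Slc1a2 and Atp1b2 of astrocytes (3946 and 823 CPM), Mbp of oligodendrocytes (3369 CPM) and Csf1r of microglia (114 CPM).

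Per length of annotated exon, Gabra5 and Gabrb2 were the most abundant of the 7, at 34.9 ± 13.8 and 34.3 ± 5.81 CPM per kb over 35 libraries (mean ± SD). Gabra3 followed at 23.4 ± 7.10, Gabrd at 15.1 ± 7.31, Gabra4 at 10.7 ± 1.76, Gabra2 at 5.25 ± 1.46 and Gabrb1 at 1.88 ± 0.379 CPM per kb. Neighbours in this order were not all apart: Gabra5 exceeded Gabrb2 in 19 of 35 libraries and Gabrd exceeded Gabra4 in 27, while Gabrb2 exceeded Gabra3 in 33 and Gabra4 exceeded Gabra2 in 35 of 35. The plot of levels per kb shows these steps and how wide some genes spread. Of the level per kb summed over the 19 subunit genes in the tables, Gabra5 took between 4.04% and 23.4% in single libraries, Gabrd between 1.80% and 16.9% and Gabra3 between 5.85% and 16.1%. Gabra4 by contrast took 3.09% to 5.89% and Gabrb2 11.1% to 17.5%.

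**Figure D1:**
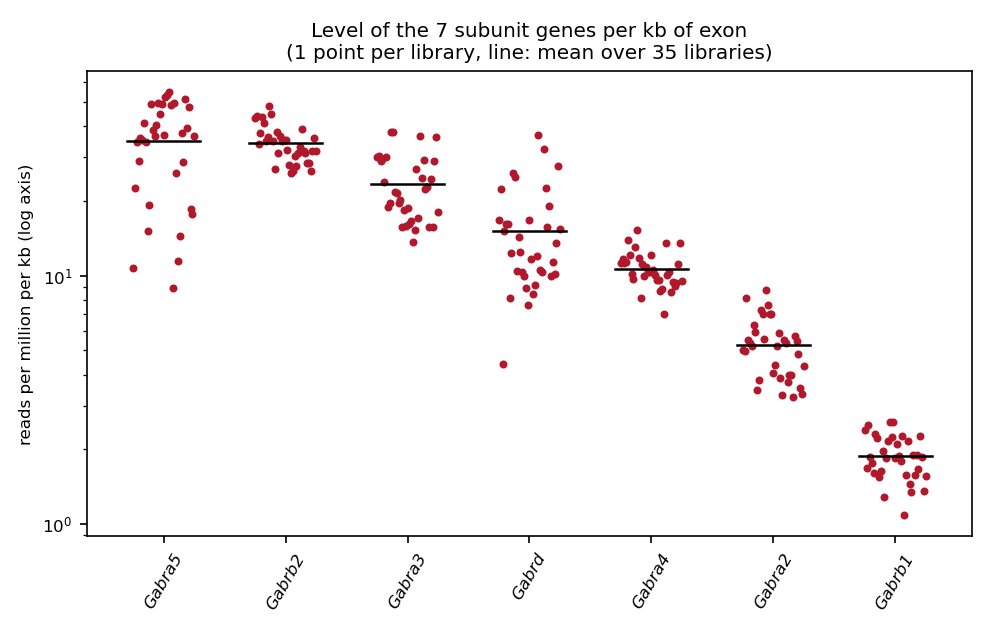
Level of each of the 7 GABA-A subunit genes in 35 libraries, in CPM per kb of exon on a log axis, with 1 point per library and a line at the mean. The genes run by mean level, and Gabra5 and Gabrd spread over a wider range than Gabra4 or Gabrb2.

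The spread between libraries differed between the genes. From the lowest to the highest of 35 libraries, Gabrd spanned 8.36-fold (12.6 to 106 CPM) and Gabra5 6.12-fold (26.6 to 163 CPM), against 2.78-fold for Gabra3, 2.71-fold for Gabra2, 2.38-fold for Gabrb1, 2.17-fold for Gabra4 and 1.86-fold for Gabrb2. Reads were not the limit, since no member had fewer than 470 reads in any of the 35 libraries. The plot of values by library shows that these spreads lie within groups as much as between them.

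**Figure D2:**
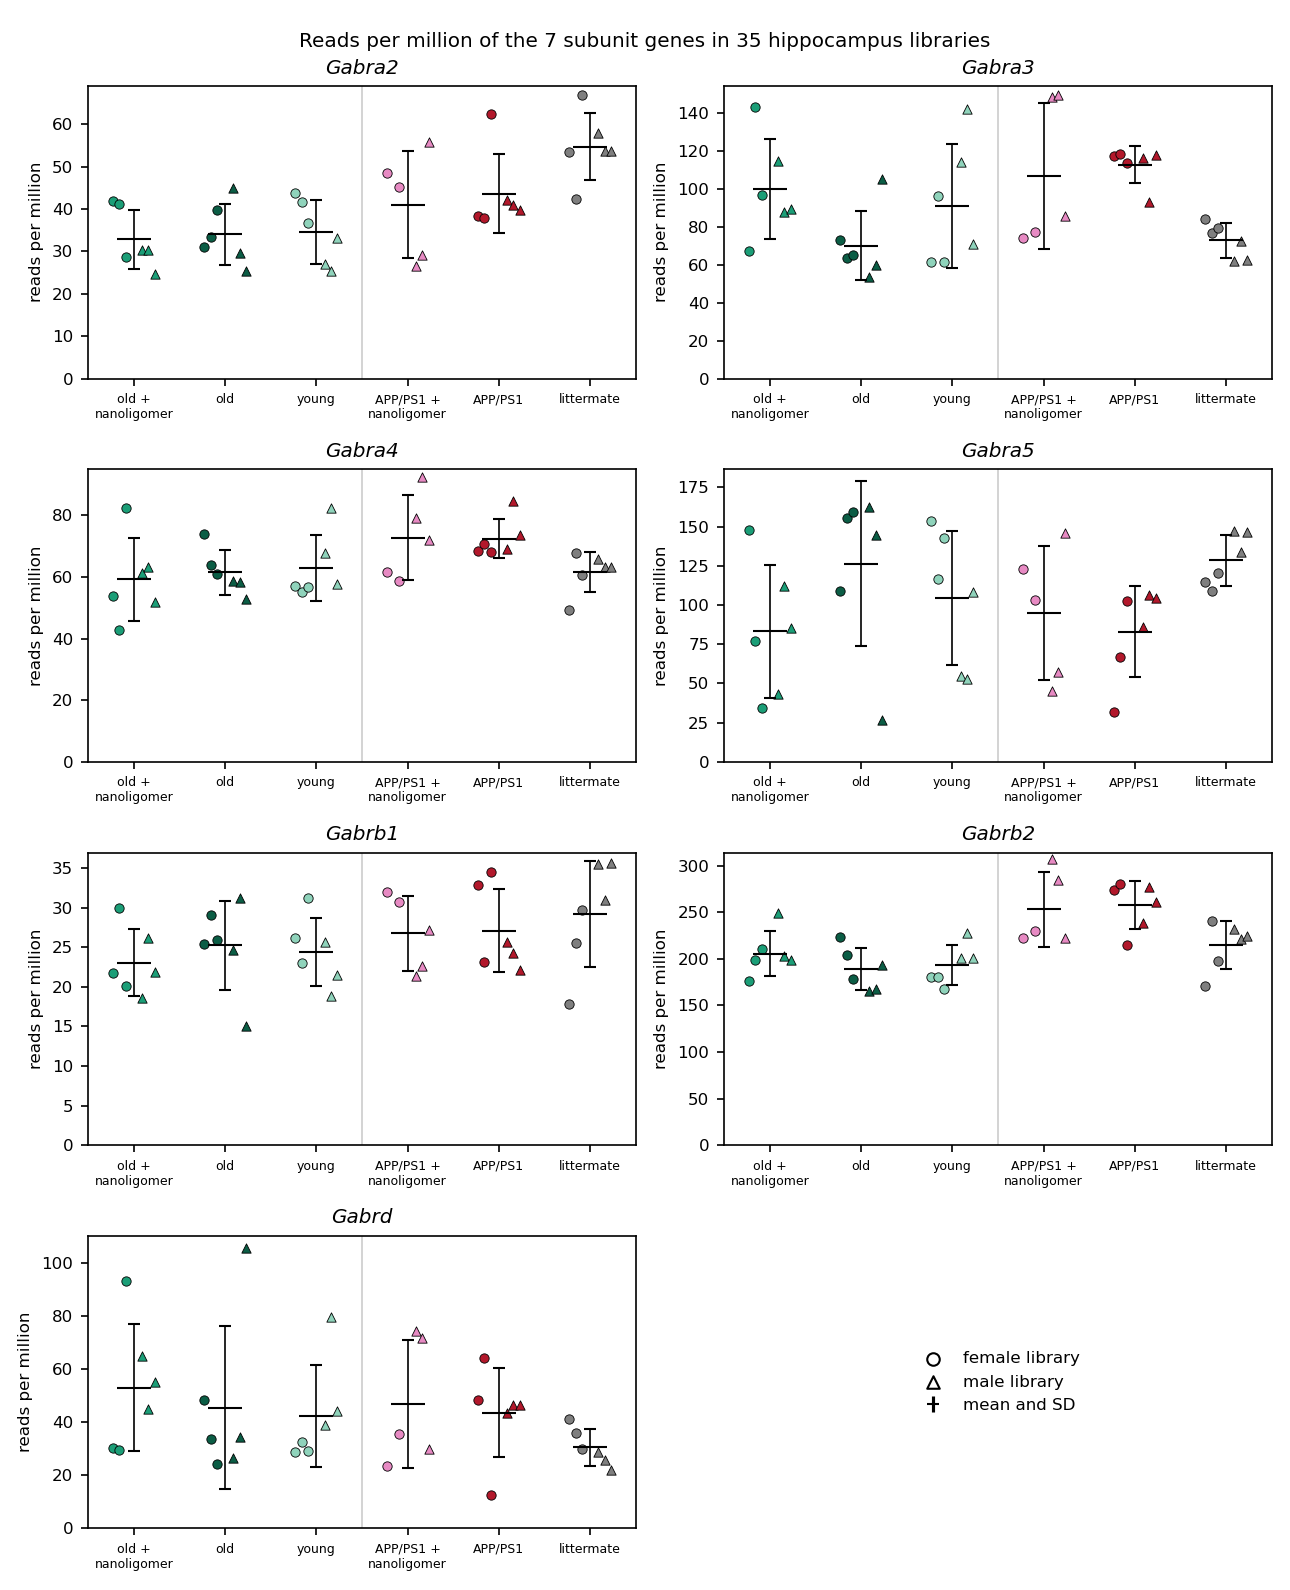
CPM of the 7 genes, 1 panel per gene with the axis from 0, for each of 35 libraries by group (circles female, triangles male, bars mean and SD). For Gabra3 the 6 APP/PS1 libraries sit between 93.3 and 119, all above the 6 littermate libraries at 61.8 to 84.4, and for Gabra5 they sit between 31.8 and 106, all below the littermates at 109 to 147.

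APP/PS1 mice and their littermates at 4 months were compared to find what changed with the amyloid transgenes. Gabra3 rose in APP/PS1 hippocampus, and it was the only one of the 7 genes to pass; with dentate granule cell markers as a covariate the call was lost (0.62, limma, adjusted p = 0.0706). In the libraries, Gabra3 ranged from 93.3 CPM through a median of 117 to 119 CPM in APP/PS1 mice, against 61.8 through 74.7 to 84.4 CPM in littermates. The groups did not overlap: the lowest APP/PS1 library, male 2, stood above every littermate library, and the other 5 lay within 114 to 119 CPM. Within the table of this comparison Gabra3 averaged 4139 ± 337 normalized counts in APP/PS1 mice and 2661 ± 317 in littermates (SD, n = 6 each). This is a log2 difference of 0.64 ± 0.0756 (SE), with 95% limits of 0.48 and 0.81, or 1.56-fold (limma, adjusted p = 0.00340 over 16475 genes). It was 1 of 8 genes called, which is 0.0486% of those tested, and all 8 were higher in APP/PS1 mice. edgeR (adjusted p = 0.00438) and DESeq2 (adjusted p = 6.89e-11) called it too. The difference was 0.52 ± 0.0993 in females and 0.76 ± 0.0993 in males, and the sexes did not differ past the threshold (log2 difference of -0.24 between them, limma, adjusted p = 0.847). In whole tissue, more cells that express Gabra3 and more Gabra3 RNA per cell cannot be told apart.

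Gabra5, the alpha subunit of tonic receptors in CA pyramidal neurons, went the other way in the same libraries without passing. It ranged from 31.8 CPM through a median of 94.5 to 106 CPM in APP/PS1 mice, against 109 through 127 to 147 CPM in littermates. These groups did not overlap either, although the highest APP/PS1 library and the lowest littermate library were close together. Among all genes tested, 0.850% had groups that did not overlap, and Gabra3 and Gabra5 were the members among them. The log2 difference of Gabra5 was -0.72 ± 0.223, with 95% limits of -1.20 and -0.24 (limma, adjusted p = 0.288), and it was -0.48 without APP/PS1 female 1, the library with the lowest value.

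Gabra2, of axon initial segment synapses, ranged from 38.0 CPM through 40.4 to 62.4 CPM in APP/PS1 mice, against 42.4 through 53.6 to 66.9 CPM in littermates. Apart from APP/PS1 female 3, the APP/PS1 libraries lay at or below 42.2 CPM, and the lowest littermate was female 2. The log2 difference was -0.33 ± 0.131 (limma, adjusted p = 0.406). Gabra4, the partner of delta, ranged from 68.2 through 69.9 to 84.8 CPM in APP/PS1 mice, against 49.5 through 63.2 to 67.8 CPM in littermates. In CPM these ranges just separated, while in the normalized counts of the test they overlapped, and the log2 difference was 0.24 ± 0.0849 (limma, adjusted p = 0.357). Gabrb2, a beta subunit of many synaptic receptors, ranged from 215 through 267 to 280 CPM in APP/PS1 mice, against 171 through 223 to 241 CPM in littermates. The groups overlapped in APP/PS1 female 3 and male 1 (log2 difference of 0.27 ± 0.0958, limma, adjusted p = 0.353).

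Gabrd, the subunit of neurosteroid-sensitive tonic receptors, ranged from 12.6 through 46.5 to 64.0 CPM in APP/PS1 mice, against 21.9 through 29.2 to 41.1 CPM in littermates. All but APP/PS1 female 3, which held the 12.6, lay above every littermate library. The log2 difference was 0.40 ± 0.326 (limma, adjusted p = 0.725). Gabrb1, at 22.2 through 24.98 to 34.6 CPM in APP/PS1 mice and 17.9 through 30.4 to 35.6 CPM in littermates, overlapped throughout (-0.08 ± 0.166, limma, adjusted p = 0.907). At an unadjusted p under 0.05, 5 of the 7 stood out (Gabra3, Gabra4 and Gabrb2 higher, Gabra2 and Gabra5 lower), beside 10.2% of all genes tested. APP/PS1 female 3 held the highest Gabra2 and the lowest Gabrd of its group. It also had the highest summed microglial markers of the 35 libraries, at 1167 CPM against 401 to 481 CPM in the other 5 APP/PS1 libraries, and the highest astrocyte sum, at 9148 CPM. Without it, 3 of the 7 passed: Gabra3, Gabra2 at -0.44 (limma, adjusted p = 0.0451) and Gabrd at 0.77 (limma, adjusted p = 0.0112). Over all genes, limma then called 256 of 16433, against 8 of 16475 with this library kept.

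**Figure D3:**
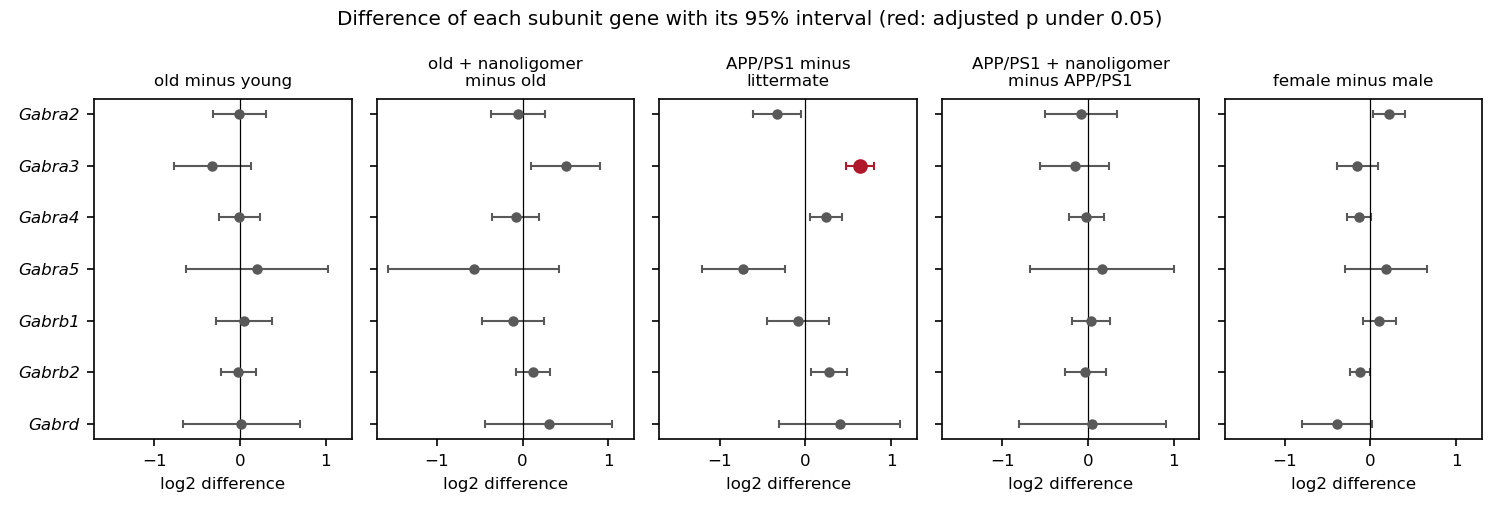
Log2 difference of each of the 7 genes in 5 comparisons with its 95% interval from limma; points right of 0 are higher in the group named first. Gabra3 in APP/PS1 mice minus littermates, at 0.64, is the only point whose adjusted p is under 0.05.

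Markers of hippocampal fields and of neighbouring regions were summed in the same libraries, and their part in the result was not tested beyond the covariates below. limma and edgeR called none of the marker genes of the 11 lists, and DESeq2 called 1 dentate, 3 neocortical, 1 striatal, 4 choroid plexus, 2 CA3 and CA2 and 1 interneuron gene. Over all genes, DESeq2 called 256 of 16475 in this comparison. Dentate granule cell genes had negative estimates for 11 of 13 (median log2 difference of -0.45), with summed levels of 550 to 838 CPM in APP/PS1 mice and 675 to 828 CPM in littermates. Prox1, the granule cell transcription factor gene, stood at 18.8 to 49.8 CPM in APP/PS1 mice, against 33.6 to 70.8 CPM in littermates. Neocortical genes were positive for 11 of 19 (median 0.41), with sums of 875 to 1882 CPM in APP/PS1 mice and 1028 to 1355 CPM in littermates. Striatal genes were positive for 13 of 14 tested (median 1.02), with sums of 299 to 3385 CPM in APP/PS1 mice and 272 to 327 CPM in littermates. The 3385 CPM belonged to APP/PS1 female 1, the next highest was female 2 at 552 CPM, and the group medians were 387 and 300 CPM. Choroid plexus genes were negative for 14 of 14 (median -0.97). Estimates were positive for 3 of 10 CA1 genes (median -0.25), 3 of 11 CA3 and CA2 genes (median -0.39), 12 of 20 interneuron genes (median 0.03), 9 of 17 thalamic and habenular genes (median 0.18), 7 of 10 astrocyte, 8 of 10 oligodendrocyte and 8 of 10 microglial genes (medians of 0.03, 0.04 and 0.17). With the summed neocortical markers as a covariate, which like the dentate one was chosen after seeing the data, the estimate for Gabra3 was 0.60 (limma, adjusted p = 0.00749). Of all 16475 genes, limma called 130 with the neocortical covariate, 4 with the dentate one and 8 with neither. The estimate for Gabra5 was -0.63 with the dentate and -0.85 with the neocortical covariate, and that for Gabrd was 0.57 and 0.06 in this order.

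The other subunit genes did not pass in limma or edgeR, and DESeq2 called 1. Of 12, 9 were tested, 7 with positive estimates (median log2 difference of 0.27, beside 0.00 over all genes). Among 27 genes of receptor assembly, anchoring and trafficking 18 were positive with a median of 0.03, and the smallest p belonged to Neto2, an auxiliary subunit of kainate receptors, at 0.43 ± 0.0912 (limma, adjusted p = 0.169; DESeq2, adjusted p = 0.00679). Of 11 genes of GABA synthesis, transport and breakdown 7 were positive with a median of 0.06. Slc6a13, the transporter GAT2 of the meninges and choroid plexus, had the smallest p in that list at -1.30 ± 0.354 (limma, adjusted p = 0.229; DESeq2, adjusted p = 0.0211). Of 12 genes of GABA-B receptors and chloride transport 8 were positive (median 0.08), with the smallest p at Kctd12, an auxiliary subunit of GABA-B receptors (-0.35 ± 0.161, limma, adjusted p = 0.479). Of 6 tested genes of neurosteroid synthesis 3 were positive (median -0.11), with the smallest p at Cyp11a1, the enzyme that makes pregnenolone (-1.03 ± 0.443, limma, adjusted p = 0.449).

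Old mice at 18 months were compared with young mice at 8 months to find what changed with age, and none of the 7 genes passed or reached an unadjusted p under 0.05, beside 0.0361% of all 16626 genes tested called and 6.13% at an unadjusted p under 0.05 (edgeR and DESeq2 also called 0 of the 7). Gabra3 ranged from 53.7 through 64.3 to 105 CPM in old mice, against 61.5 through 83.7 to 142 CPM in young mice. The high libraries were old male 3 and young males 1 and 2, and the groups overlapped (log2 difference of -0.32 ± 0.207, 95% limits -0.77 and 0.13, limma, adjusted p = 0.858). Gabra5 ranged from 26.6 through 150 to 163 CPM in old mice and from 52.7 through 112 to 153 CPM in young mice (0.20 ± 0.383, limma, adjusted p = 0.954). The lowest Gabra5 values belonged to the same 3 libraries that held the high Gabra3 values. Gabrd reached 106 CPM in old male 3 and 79.5 CPM in young male 2, against 24.3 to 48.2 CPM in the other old libraries and 28.8 to 44.3 CPM in the other young ones. Its log2 difference was 0.02 ± 0.314. Gabra2, Gabra4, Gabrb1 and Gabrb2 had log2 differences between -0.02 and 0.05, with SEs of 0.0940 to 0.152. No member had groups without overlap, beside 0.505% of all genes.

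The pathway lists gave 0 calls with age in limma. Of the other subunit genes 6 of 9 had negative estimates (median -0.32), led by Gabrq, the theta subunit of hypothalamic and brainstem receptors, at -1.48 ± 0.751 (limma, adjusted p = 0.850), whose values rest on young male 1 at 43.4 CPM. Gad2, a GABA-synthesizing enzyme, stood at -0.35 ± 0.145 (limma, adjusted p = 0.762) in a list with 10 of 11 negative estimates (median -0.16). Hap1, which returns internalized receptors to the surface, stood at -0.49 ± 0.302 among 27 trafficking genes with a median of 0.01. Stk39, a kinase that regulates chloride cotransporters, stood at -0.20 ± 0.0857 (median of the 12 genes -0.05), and Tspo, the mitochondrial protein first linked to steroid synthesis and abundant in reactive microglia, at 0.47 ± 0.186 (median of 6 genes 0.07). Choroid plexus genes were negative for 14 of 14 with age (median -1.97), with summed levels of 26.1 to 267 CPM in old mice and 15.5 to 4336 CPM in young mice, and microglial genes were positive for 10 of 10 (median 0.35).

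Nanoligomer-treated and untreated old mice were compared to see what the treatment changed at 18 months, and none of the 7 passed (0% of 16517 genes were called by limma, with 7.22% at an unadjusted p under 0.05). The untreated old libraries were the same 6 that were compared with young mice, so the age and treatment differences share them. Gabra3 came nearest, ranging from 67.3 through 93.0 to 143 CPM in treated old mice, against 53.7 through 64.3 to 105 CPM in untreated old mice. Treated female 1 was the only treated library below 87.8 CPM, and untreated male 3 the only untreated one above 73.2 CPM. The log2 difference was 0.50 ± 0.185, with 95% limits of 0.10 and 0.90 (limma, adjusted p = 0.678; DESeq2, adjusted p = 0.408), and edgeR and DESeq2 called 0 of the 7. Gabra5 ranged from 34.05 through 81.1 to 148 CPM in treated and from 26.6 through 150 to 163 CPM in untreated old mice. The treated libraries reached 112 CPM apart from female 1, while 4 of the 6 untreated ones held 145 CPM or more (log2 difference of -0.57 ± 0.463, limma, adjusted p = 0.764). Gabrd ranged from 29.7 through 49.99 to 93.0 CPM in treated and from 24.3 through 34.0 to 106 CPM in untreated old mice (0.30 ± 0.344). Gabra2, Gabra4, Gabrb1 and Gabrb2 had log2 differences from -0.12 to 0.12. No member's groups were without overlap, beside 0.254% of all genes.

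Regional markers are given here too. Dentate genes were negative for 11 of 13 (median -0.46) with sums of 480 to 787 CPM in treated and 632 to 1006 CPM in untreated old mice, neocortical genes were positive for 15 of 19 (median 0.32) with sums of 974 to 1949 CPM in treated and 792 to 1688 CPM in untreated mice, and limma, edgeR and DESeq2 called 0 genes of either list. With the dentate sum as a covariate the Gabra3 estimate was 0.14, and with the neocortical sum 0.17. Under either covariate the estimates of Gabra2, Gabra5, Gabrb1 and Gabrd changed sign. Of the other subunit genes 7 of 9 were positive (median 0.11). Dlg2, a scaffold protein of synapses, led the trafficking genes (0.16 ± 0.0602, median 0.00), Slc6a13 the synthesis and transport genes (-0.69 ± 0.252, median 0.03), Kctd8, a GABA-B auxiliary subunit, the GABA-B list (0.36 ± 0.201, median 0.03) and Tspo the steroid genes (-0.59 ± 0.238, median 0.02), and none of these passed.

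Nanoligomer-treated APP/PS1 mice were set against the same 6 untreated APP/PS1 libraries that were compared with littermates, so the 2 comparisons share those libraries. None of the 7 genes passed in limma (0% of 16124 genes called, 2.96% at an unadjusted p under 0.05, edgeR and DESeq2 0 of the 7), and none reached an unadjusted p under 0.05. The 5 treated libraries held 74.3, 77.1, 85.6, 148 and 149 CPM of Gabra3, against 93.3 through 117 to 119 CPM in 6 untreated libraries. Treated libraries thus lay on both sides of the untreated ones, with males 1 and 2 above all of them (log2 difference of -0.16 ± 0.184, 95% limits -0.56 and 0.25, limma, adjusted p = 0.997). Gabra5 held 45.1, 57.2, 103, 123 and 146 CPM in treated mice, with the low values in the same males 1 and 2, against 31.8 through 94.5 to 106 CPM in untreated mice (0.17 ± 0.382). Gabrd held 74.2 and 71.6 CPM in treated males 1 and 2 and 23.5 to 35.3 CPM in the other 3 treated libraries. The remaining genes had log2 differences from -0.08 to 0.04, with SEs of 0.0948 to 0.190. No member's groups were without overlap, beside 0.310% of all genes.

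Among the other subunits 8 of 9 estimates were negative in treated APP/PS1 mice (median -0.25), with the smallest p at Gabre, the epsilon subunit, whose untreated values rest on APP/PS1 female 1 at 20.02 CPM (log2 difference of -3.16 ± 1.16, limma, adjusted p = 0.997). Trak2, a motor adaptor, led the trafficking genes at -0.19 ± 0.109 (median 0.00), Slc6a12, the betaine and GABA transporter, the synthesis and transport genes at -0.49 ± 0.475 (10 of 11 negative, median -0.18), Stk39 the GABA-B and chloride genes at 0.23 ± 0.0957 (median 0.05) and Cyp11a1 the steroid genes at 0.87 ± 0.533 (median 0.09). All had an adjusted p of 0.997 in limma. Choroid plexus genes were positive for 14 of 14 (median 2.55), with sums of 69.5 to 4212 CPM in treated and 21.2 to 101 CPM in untreated APP/PS1 mice. The part of these choroid plexus differences in the values of the 7 genes was not tested. With dentate or neocortical markers as a covariate, limma called 0 of the 7, beside 0 of all 16124 genes.

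Female and male libraries were compared over both arms, and none of the 7 genes passed (0.108% of 16645 genes called, 10.8% at an unadjusted p under 0.05; edgeR called 0 of the 7). Gabra2 ranged from 28.6 through 41.6 to 66.9 CPM in 17 female libraries, against 24.7 through 31.8 to 58.0 CPM in 18 male ones (log2 difference female minus male of 0.21 ± 0.0926, limma, adjusted p = 0.426). Gabrb2 ranged from 168 through 204 to 280 CPM in females, against 166 through 223 to 307 CPM in males (-0.12 ± 0.0574, limma, adjusted p = 0.438). The ranges overlapped for both. Gabra3, on chromosome X, averaged 86.5 ± 24.1 CPM in females and 97.0 ± 30.8 CPM in males (-0.15 ± 0.115, limma, adjusted p = 0.657). Gabrd averaged 37.6 ± 18.3 CPM in females and 49.0 ± 22.4 CPM in males (-0.39 ± 0.201, limma, adjusted p = 0.484), and neocortical markers were negative for 12 of 19 (median -0.23). In the pathway lists the smallest p-values belonged to Gabra6, the granule cell subunit of the cerebellum (0.92 ± 0.381), Gabarapl1, of the family of GABA-A receptor-associated proteins (-0.06 ± 0.0267), Dbi, which yields peptides that bind the benzodiazepine site (0.17 ± 0.0835), Gabbr2, the GABA-B signalling subunit (-0.18 ± 0.0650), and Akr1c18, a progesterone reductase (-0.28 ± 0.159), none with an adjusted p under 0.05 in limma.

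No effect differed between the sexes for any of the 7 genes after adjustment (0% of genes called in each of the 4 comparisons in limma). At an unadjusted p under 0.05 stood Gabra4 and Gabrb2 with age, where 4.39% of all genes did so. The age difference of Gabra4 was 0.23 in females and -0.25 in males (each ± 0.129, SE), and that of Gabrb2 was 0.19 in females and -0.23 in males (each ± 0.107; limma, adjusted p = 0.983 for both differences between sexes). Gabrb2 in treated old mice (-0.06 in females, 0.30 in males, beside 4.71% of genes), Gabrb1 in APP/PS1 mice (0.30 in females, -0.47 in males, beside 5.10%) and Gabra3 in treated APP/PS1 mice (-0.61 in females, 0.21 in males, beside 4.52%) were the others, with limma adjusted p-values of 0.914, 0.847 and 0.924.

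Effects from tables without a library in common were also compared with each other. The nanoligomer difference of Gabra3 was -0.16 in APP/PS1 mice and 0.50 in old mice, a difference between them of -0.66 ± 0.280 (limma, adjusted p = 0.918; 0% of 16384 genes called, 4.35% at an unadjusted p under 0.05). The transgene difference of Gabra3, 0.64, and the age difference, -0.32, were apart by 0.96 ± 0.232 (limma, adjusted p = 0.174; 0.0422% of 16597 genes called, 11.7% at an unadjusted p under 0.05), and DESeq2 called it (log2 difference of 0.98, adjusted p = 0.0159). For the other 6 genes the adjusted p was 0.418 or more in both tests by limma. Over all genes, DESeq2 called more than limma for the transgene difference alone (256 against 8) and for the age difference alone (123 against 6).

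Set side by side over groups, mean Gabra3 was 107 ± 38.5 CPM in treated APP/PS1 mice, 113 ± 9.73 in APP/PS1 mice and 72.9 ± 9.19 in littermates, and 99.9 ± 26.3 in treated old mice, 70.1 ± 18.3 in old mice and 91.0 ± 32.5 in young mice (SD, n = 6, and 5 for treated APP/PS1 mice). In order of level, APP/PS1 mice came first, then treated APP/PS1, treated old, young, littermate and old mice. Libraries of groups next to each other in that order overlapped, and the SDs of APP/PS1 mice and littermates were the smallest. Gabra2 averaged 41.0 ± 12.7 CPM in treated APP/PS1 mice, 43.6 ± 9.34 in APP/PS1 mice and 54.7 ± 7.94 in littermates, and 32.8 ± 7.02 in treated old, 34.1 ± 7.17 in old and 34.6 ± 7.51 in young mice. Littermate female 2, at 42.4 CPM, lay within the range of the 18 C57BL/6 libraries (24.7 to 44.97 CPM), and the other 5 littermates lay above it. Gabra2 expression in brain is known to vary between inbred mouse strains. Strain background, age and cohort cannot be told apart between the arms, and no test was made across them. Per kb, Gabra3 exceeded Gabra5 in 2 of 5 treated APP/PS1, 3 of 6 APP/PS1 and 0 of 6 littermate libraries, and in 3 of 6 treated old, 1 of 6 old and 2 of 6 young libraries.

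Within groups, several pairs of the 7 genes varied together or against each other, while Gabra4 was in none of the pairs that passed. Deviations of log2(CPM + 1) from the mean of each group and sex were correlated over 35 libraries, in a family of 98 relations: 21 pairs of the 7 genes, and each gene with the summed markers of 11 cell types or regions. Of the pairs, 9 had an adjusted permutation p under 0.05 (100000 permutations within group and sex, two-sided), 3 of them positive and 6 negative. By Spearman's rho, Gabra3 with Gabrb2 did not pass (adjusted permutation p = 0.0504). Gabra5 and Gabrd were opposed (Pearson's r = -0.80, adjusted permutation p = 0.0128; Spearman's rho = -0.77, permutation p = 0.000230), as were Gabra2 and Gabrd (r = -0.80, adjusted permutation p = 0.00627; rho = -0.75). Gabra3 ran against Gabra5 (r = -0.73, permutation p = 0.00352, adjusted p = 0.0265; rho = -0.77) and with Gabrb2 (r = 0.48, adjusted permutation p = 0.0366; rho = 0.49). Gabrb2 and Gabrd varied together (r = 0.70, adjusted permutation p = 0.00627; rho = 0.75), and so did Gabra2 and Gabra5 (r = 0.70, adjusted permutation p = 0.0185; rho = 0.64).

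Without the 2 libraries farthest on the first gene these became -0.72 for Gabra5 and Gabrd, -0.75 for Gabra2 and Gabrd, -0.73 for Gabra3 and Gabra5, 0.47 for Gabra3 and Gabrb2, 0.61 for Gabrb2 and Gabrd and 0.64 for Gabra2 and Gabra5. All 9 pairs had the same sign within the aging arm of 18 libraries and the transgenic arm of 17, for instance -0.74 and -0.69 for Gabra3 with Gabra5. Neighbours on chromosome 5 did not track each other in the same way: r was 0.40 for Gabra2 and Gabrb1, -0.38 for Gabra2 and Gabra4 and -0.11 for Gabra4 and Gabrb1 (adjusted permutation p of 0.220, 0.182 and 0.785). The plot of Gabra3 against Gabra5 shows the opposition library by library.

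**Figure D4:**
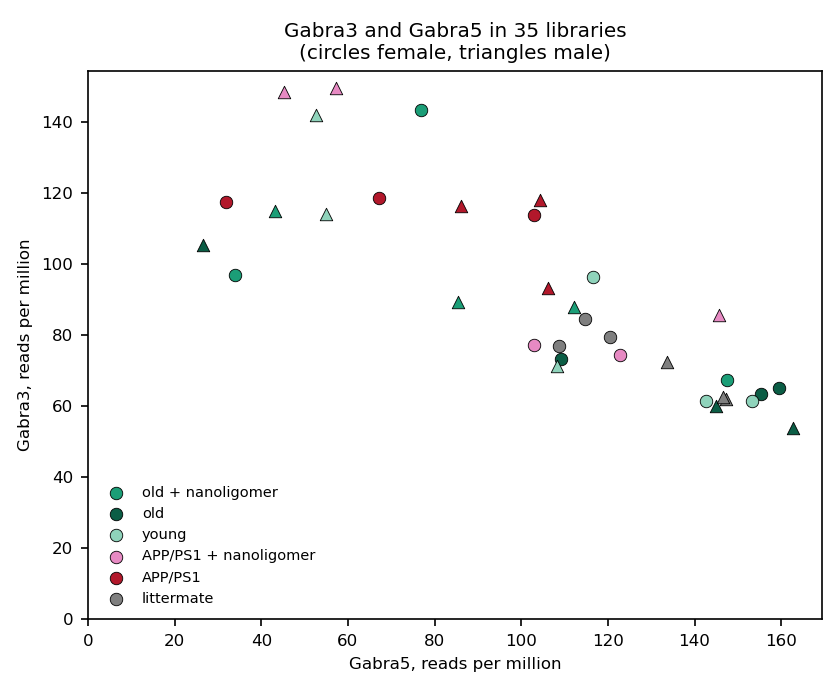
Gabra3 against Gabra5 in 35 libraries, in CPM with both axes from 0, coloured by group (circles female, triangles male). Libraries high in Gabra5 tend to be low in Gabra3 in both arms, and the 6 littermate libraries lie below and to the right of the 6 APP/PS1 libraries.

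The deviations also followed regional markers, with 9 of 77 relations at an adjusted p under 0.05 for Pearson's r. By Spearman's rho, Gabra2 with the CA3 and CA2 sum did not pass (adjusted permutation p = 0.0538). Neither did Gabra5 with the striatal and the interneuron sum (adjusted permutation p of 0.0504 and 0.0527 for rho). Gabra3 ran against the sum of dentate granule cell markers (r = -0.73, adjusted permutation p = 0.0104; rho = -0.72; r = -0.66 without the 2 farthest libraries, -0.78 in the aging and -0.57 in the transgenic arm). Gabrd and Gabrb2 followed the neocortical sum (r = 0.76 and 0.72, adjusted permutation p of 0.0140 and 0.00294; rho = 0.72 and 0.79) and ran against the CA3 and CA2 sum (r = -0.76 for both, adjusted permutation p of 0.00898 and 0.00627; rho = -0.65 and -0.80). Gabra2 followed the CA3 and CA2 sum (r = 0.71, adjusted permutation p = 0.0356; rho = 0.57), with coefficients of 0.62 in the aging and 0.78 in the transgenic arm. Gabra5 followed the CA1 sum (r = 0.64, adjusted permutation p = 0.0424; rho = 0.61) and ran against the striatal sum (r = -0.73, adjusted permutation p = 0.0207; rho = -0.57) and the interneuron sum (r = -0.52, adjusted permutation p = 0.0363; rho = -0.50). The striatal and interneuron lists share the gene Tac1, and the dentate and interneuron lists share Prox1. Gabrd, which background places in dentate granule cells, had r = -0.37 with the dentate sum, and Gabra4 r = 0.14, neither past the threshold. Markers of astrocytes, oligodendrocytes, microglia, thalamus and choroid plexus had no relation past it. All these relations share libraries, depth scaling and dissection, and they do not show which differs first.

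**Figure D5:**
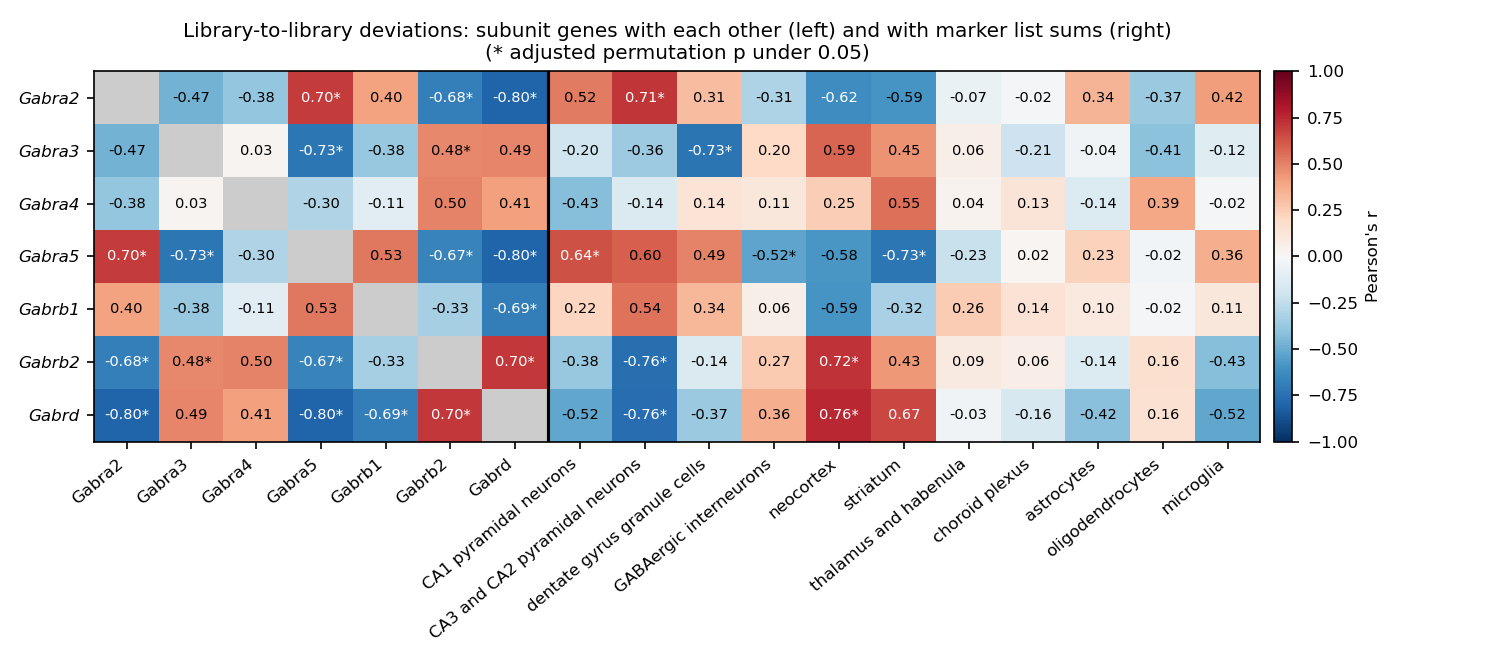
Pearson's r over 35 libraries between deviations of log2(CPM + 1) from group and sex means, for the 7 genes with each other (left of the line) and with the summed markers of 11 cell types or regions (right). Stars mark an adjusted permutation p under 0.05, and the strongest negative values, -0.80, join Gabrd with Gabra5 and with Gabra2.

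The genes whose deviations were most like those of each member, among 13792 named genes with a mean of at least 1 CPM over the 35 libraries, are given as a description. For Gabra3 they were Cdh22, a cadherin (r = 0.91), Mgat5b, a glycosyltransferase (0.89), and Doc2a, a calcium sensor of transmitter release (0.87). For Gabra5 they were Ksr1, a scaffold of the MAP kinase pathway (0.97), St6galnac5, a sialyltransferase (0.97), and Arhgap39, an activator of small GTPases (0.97). For Gabrd they were Cited4, a transcriptional coactivator (0.96), Mtcl1, a microtubule crosslinker (0.95), and Stard10, a lipid transfer protein (0.94). For Gabrb2 they included the transcription factor gene Foxo3 (0.87) and the sialyltransferase gene St6gal2 (0.86). Gabra2 was closest to Krt2, Ptpra and Dgkg (0.88, 0.86 and 0.86), Gabra4 to Ppp1r9a, Jak2 and Strn (0.84, 0.79 and 0.78) and Gabrb1 to Nlgn3, Prrc2b and Map1b (0.88, 0.86 and 0.85).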

How the data were processed

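Values were deposited as a signal, counts divided by a size factor of each library, in 4 tables with 12 libraries apiece. STAR, DESeq2 and mm10 are named by the submitters' processing notes; their versions are not stated in these sources. Dividing each library by its common step recovered whole reads (100% of values within 0.001). 12 libraries stand in 2 tables with identical reads; 2349 symbols had no reads. Of the columns of values, 0 were unused. 1 column name (treated APP/PS1 male 3) differs by 1 letter from its title.

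limma 3.58.1 (R 4.3.3, trend) was fitted within each table to log2(normalized count + 1) with sex and group, leaving out genes whose mean was under 10, with Benjamini-Hochberg adjustment over all genes. Effects in separate tables were compared in 1 joint fit. Sex was tested on log2(TMM CPM + 1) over 35 libraries. edgeR 4.0.16 (quasi-likelihood) and DESeq2 1.42.0 on recovered reads, filters, pseudocounts, scalings, covariates and leaving out each library were alternatives; the fits were tested on simulated data. Exon lengths come from GENCODE, mm10. The left-out library, APP/PS1 nanoligomer female 3, entered only 1 alternative.

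The members and lists (5 pathway and 11 marker lists, 27 of 31 assembly, anchoring and trafficking genes in the tables) were chosen with earlier results of these data known. Named genes were all 7 members; in each pathway list up to 4 called genes or else the 1 with the smallest p; the 3 genes most like each member; and the 2 most abundant markers of each list. Predicted genes were not named, and some genes that this rule selects are not reported here. The 95% limits come from the spread between libraries in limma.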

Additional observations from a re-analysis of the deposited data

Results flagged for a closer look

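Within the 42 sets of libraries examined (7 genes in 6 groups), 5 had a library far from the others of its group by Dixon's test at 95%, which chance gives in about 1 of 20 sets. APP/PS1 female 3 was high for Gabra2, at 62.4 CPM against 38.0 to 42.2 CPM in the other 5 APP/PS1 libraries. APP/PS1 male 2 was low for Gabra3, at 93.3 CPM, and high for Gabra4, at 84.8 CPM. Old male 3 was high for Gabrd, at 106 CPM, and young male 2 likewise, at 79.5 CPM. Old male 3 also held the lowest Prox1 of the 35 libraries, 8.44 CPM, and young male 2 held 9.60 CPM. Neither the effect of treatment, age or genotype between the sexes nor the differences between effects passed for any of the 7 genes, with 0 of 42 tests at an adjusted p under 0.05 in limma.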

How the results depend on the processing

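Gabra3 kept its direction and its call in APP/PS1 against littermate mice in 12 of 12 fits that left out 1 library, at 0.60 to 0.67 on the log2 scale. The number of members called in that comparison was 1, and between 1 and 3 when 1 library was left out. Without APP/PS1 female 3 it was 3, beside 256 of all 16433 genes. It was 0 with dentate gyrus granule cell markers as a covariate, beside 4 of all 16475 genes, and the cause was not tested. With the replicate block in place of sex it was also 0, beside 10 of all 16475 genes, against 8 in the main fit. Gabra3 then stood at 0.64 with an adjusted p of 0.0625 (limma), and this block changed no other call of a member. The labels do not say whether libraries with equal replicate numbers are paired. Deviations of same-numbered libraries correlated above 0.1 in 1 of 6 pairs in APP/PS1 against littermate mice and 1 of 5 in treated against untreated APP/PS1 mice. They did so in 1 of 6 pairs in old against young mice and 0 of 6 in treated against untreated old mice. With so few libraries per group and sex, these correlations cannot decide whether the samples are paired. DESeq2 called 1 member in the transgene effect minus the age effect, where limma called 0. Over all genes, DESeq2 also called more than limma in the transgene and the age comparison.

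The values that changed sign were all uncalled, and the cause was not tested. For old against young mice, Gabra2 was 0.0084 by edgeR and 0.00997 by DESeq2. The marker covariates were chosen after seeing the data. With dentate gyrus granule cell markers as a covariate, old against young mice gave 0.021 for Gabra4, -0.24 for Gabra5, -0.11 for Gabrb1 and 0.038 for Gabrb2. Treated against untreated old mice then gave 0.12 for Gabra2, 0.0305 for Gabra4, 0.20 for Gabra5, 0.041 for Gabrb1 and -0.19 for Gabrd. With neocortex markers they gave 0.17 for Gabra2, 0.26 for Gabra5, 0.064 for Gabrb1, -0.032 for Gabrb2 and -0.30 for Gabrd, and APP/PS1 against littermate mice gave 0.061 for Gabrb1. For treated against untreated APP/PS1 mice, Gabra4 was 0.014 without a sex term. Gabrd was -0.21 with the replicate block, -0.028 with neocortex markers and -1.58 with treated female 3 kept in. For females against males, Gabra5 was -0.21 in the transgenic arm alone and Gabra2 was -0.091 with that library kept in.

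Leaving out 1 library changed the sign of further uncalled differences. Old against young mice ranged from -0.13 to 0.053 for Gabra2, -0.073 to 0.088 for Gabra4, -0.024 to 0.55 for Gabra5, -0.068 to 0.17 for Gabrb1, -0.077 to 0.044 for Gabrb2 and -0.23 to 0.22 for Gabrd. Treated against untreated old mice ranged from -0.12 to 0.057 for Gabra2 and -0.17 to 0.026 for Gabra4. Treated against untreated APP/PS1 mice ranged from -0.23 to 0.032 for Gabra2, -0.089 to 0.032 for Gabra4, -0.089 to 0.41 for Gabra5, -0.028 to 0.076 for Gabrb1, -0.092 to 0.033 for Gabrb2 and -0.21 to 0.27 for Gabrd. Of the alternatives, 1063 member values kept their direction and their side of the threshold, and 63 member values changed sign. A further 3 became called and 2 lost their call. Of the counts of members called, 246 equalled the count of the main fit, 2 were higher and 2 lower. The main count was 0 in every comparison but APP/PS1 against littermate mice. limma called at most 0.108% of all genes in the main fits, so agreement at 0 says little about the members. Limits were the 5 or 6 libraries in a group, unknown strand counting and the dissection markers, rather than depth.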

Other observations

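Gabrq and Gabre, which encode the theta and epsilon subunits and flank Gabra3 on chromosome X, reached at most 8.50 and 2.82 CPM in 33 libraries and stood out in the same pair. APP/PS1 female 1 held 54.6 CPM of Gabrq and 20.02 CPM of Gabre, and young male 1 held 43.4 and 15.1 CPM, while Gabra3 in these libraries, at 117 and 114 CPM, was within the range of the others.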
